A study of Mus musculus with 36 samples.

Results

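The binding of Oct4 (labelled Pou5f1), Sox2 and Nanog was compared at 1 time point, in mouse embryonic stem cells kept for 24 h in 2i medium, together with the histone mark H3K4me3. The question was where the 3 factors were called at the same places, how near their points of highest signal lay to each other, whether sites strong for one were strong for another, and how far they lay from H3K4me3. The data were 4 lists of ChIP-seq peaks, 1 for each factor and 1 for the mark, from 7 of the 36 samples in the labels. Peaks on chromosomes 1 to 19 and X were kept and merged into regions wherever they shared at least 1 bp. The 4 lists held 82252 such peaks, of 167272 in the 9 lists read for comparisons, and gave 57018 regions, of which 44117 held at least 1 factor.

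All the cells were KH2, an established embryonic stem cell line engineered to carry an inducible transgene system. No transgene, knockout or other treatment is named for these samples, and the labelled cell type was not checked against gene markers, since no gene was assigned to a peak. The cells were grown in serum medium with LIF on irradiated mouse embryonic fibroblasts, which serve as feeder cells, and were then moved to 2i medium with LIF for 24 h. 2i is a serum-free medium with inhibitors of the kinases MEK and GSK3, in which mouse embryonic stem cells take on a uniform, naive state. Oct4 has 1 sample in the labels, Sox2, Nanog and H3K4me3 have 2 each, and every list is a single set of peaks with no value per replicate. No difference between lists could therefore be set against the spread between cultures, no test was made, and the intervals below cover counting error only. Another 24 h list of Nanog, made with another lot of the same antibody from 1 sample (lot 2, against lot 1 for the main list), and the lists of the same 4 targets in serum were used as yardsticks.

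Oct4 is a POU-domain transcription factor and Sox2 an HMG-box factor. Both are required for pluripotency and bind many enhancers of embryonic stem cells side by side, on a composite DNA element with adjoining POU and HMG parts. Nanog is a homeodomain factor that lets the cells renew themselves with less LIF and is found at many of the same enhancers. H3K4me3, trimethylation of lysine 4 of histone H3, marks mainly the promoters of active or poised genes, so distance to it stands in for distance to promoters. In ChIP-seq, proteins are fixed to DNA with formaldehyde, the chromatin is sheared (here mostly to 200 to 700 bp), an antibody pulls down the fragments that carry the protein, and the fragments are sequenced. A peak is a stretch where such fragments pile up above a control. Its summit is the base with the highest pile-up, and its fold is that height as a ratio to the control. The 3 factors were measured in separate libraries from populations of cells, so a region called for several factors need not carry them together on 1 DNA molecule.

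The 3 lists differed in length and stringency, which sets what their overlaps can show. Oct4 had 7820 peaks, Sox2 15268, Nanog 41729 and H3K4me3 17435. The lowest −log10 q, the significance the authors gave their weakest kept peak, was 85.9 for Oct4, 16.0 for Nanog, 4.91 for H3K4me3 and 3.69 for Sox2. The Oct4 list thus stopped at a much higher significance than the Sox2 list. The median fold was 20.1 for Oct4, 10.8 for Nanog, 8.16 for H3K4me3 and 5.94 for Sox2, and the median width was 887 bp, 621 bp, 1121 bp and 425 bp in the same order. Of the span of these chromosomes the peaks covered 0.291% for Oct4, 0.266% for Sox2, 1.10% for Nanog and 0.871% for H3K4me3.

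As background for what follows, 13.7% of all regions held an Oct4 peak, 26.3% a Sox2 peak, 72.5% a Nanog peak and 29.8% an H3K4me3 peak. All 3 factors were called in 5796 regions, 13.1% of the regions with a factor. Sox2 and Nanog without Oct4 shared a further 6932 regions. Oct4 and Nanog without Sox2 shared 1108, and Oct4 and Sox2 without Nanog shared 366, the fewest of the combinations. Nanog alone was called in 27479 regions, 62.3% of those with a factor, while Sox2 alone held 1920 and Oct4 alone 516. With the 3 factor lists trimmed to the length of the Oct4 list, keeping the peaks of highest −log10 q, the regions with all 3 factors fell to 3459.

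**Figure D1:**
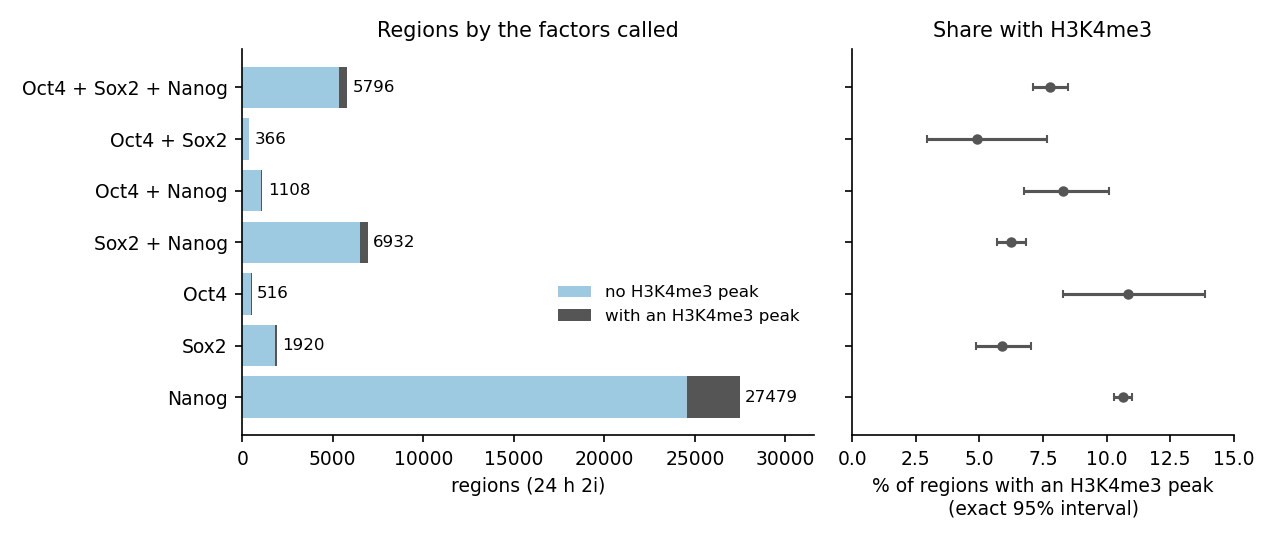
Left, number of regions at 24 h of 2i by the factors called in them, with the part that also held an H3K4me3 peak in dark grey. Right, that part in percent with its exact 95% interval. Regions with Nanog alone made up 27479 and regions with all 3 factors 5796, and the share with H3K4me3 lay between 4.92% and 10.9% in the 7 combinations.

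The overlap was lopsided, with the highest shares for the longest list. Of the Oct4 peaks, 88.6% (95% interval 87.9 to 89.3) met a Nanog peak and 78.9% (78.0 to 79.8) met a Sox2 peak. With the 3 factor lists at equal length the order of these partners turned, to 52.3% for Nanog and 61.3% for Sox2. In the full lists both partners were met by 74.2% of Oct4 peaks and neither by 6.69%. Sox2 peaks met Nanog in 84.8% (84.2 to 85.4) of cases and Oct4 in 41.3% (40.5 to 42.0), with both in 38.7% and neither in 12.7%. Nanog peaks met Sox2 in 30.6% and Oct4 in 17.0% of cases, and 66.4% met neither.

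Where the factors met, their peaks were higher, except those of Oct4 with Nanog but no Sox2. The median Nanog fold was 27.1 in regions with all 3 factors, 18.1 with Sox2 alone beside it, 12.2 with Oct4 alone beside it and 8.92 where Nanog stood by itself. The median Sox2 fold fell in a similar order, from 8.43 with both partners to 6.00 with Oct4, 5.43 with Nanog and 4.86 by itself. Oct4 varied least: its median fold was 22.0 with both partners, 20.1 with Sox2, 16.4 with Nanog and 16.7 by itself. The Oct4 list stopped at a high significance and held few peaks of low fold. Its lower quartile of fold was 15.5, beside 7.67 for Nanog and 4.78 for Sox2. The single lowest folds were 2.68 for Oct4, 2.47 for Nanog and 1.42 for Sox2. The part of the significance limit in these medians was not tested.

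The other lists gave an outside view of these classes. Nanog lot 2 was called in 87.2% (86.3 to 88.0) of the regions with all 3 factors, 67.2% of those with Sox2 and Nanog, 60.5% of those with Oct4 and Nanog and 29.2% of those with Nanog alone. In serum, Sox2 was called in 74.9% and Oct4 in 58.8% of the regions with all 3 factors. Serum Oct4 was found in 56.6% of the regions with Oct4 and Sox2, but in 29.8% of those with Oct4 alone and 22.7% of those with Oct4 and Nanog. Serum Sox2 was found in 54.0% of the regions with Sox2 and Nanog, 51.4% of those with Oct4 and Sox2 and 16.1% of those with Sox2 alone. Some of the 366 regions without a Nanog peak of lot 1 held one elsewhere, since 75 of them (20.5%, 16.5 to 24.995) were called for Nanog with lot 2 or in serum.

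Strong peaks met the other factors more often than weak ones. Each list was cut into 10 equal parts by fold, called deciles here, the first being the strongest. In the strongest decile of Oct4 peaks, 98.5% met Sox2 and 97.1% met Nanog, against 66.0% and 86.2% in the weakest decile. Sox2 peaks fell from 87.1% to 22.7% for Oct4. Nanog peaks fell from 89.5% to 6.59% for Sox2 and from 58.5% to 4.87% for Oct4. The weak ends depended on the lists. At equal list length, the weakest deciles of Nanog peaks met Sox2 in 45.8% and Oct4 in 46.8% of cases, those of Sox2 peaks met Oct4 in 43.6%, and those of Oct4 peaks met Sox2 in 43.6% and Nanog in 43.4%. With lot 2, the weakest Nanog decile met Sox2 in 30.6% and Oct4 in 17.2%. With a minimum −log10 q of 10, the weakest deciles gave 2.06% for Nanog with Sox2, 46.7% for Sox2 with Oct4 and 39.6% for Oct4 with Sox2. Ranked by −log10 q, the weakest Sox2 decile met Oct4 in 11.7% and the weakest Nanog decile met Oct4 in 2.85%. In each of these settings the strongest decile had the higher share.

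**Figure D2:**
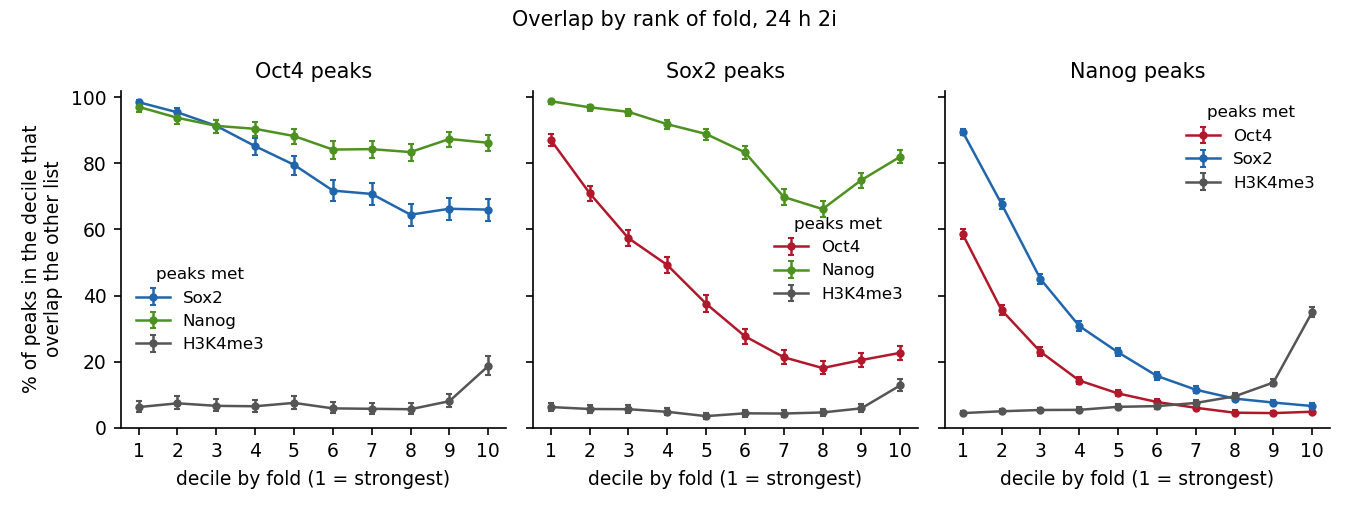
Percent of peaks that overlap a peak of another list, by decile of fold (1 is the strongest), for Oct4, Sox2 and Nanog peaks at 24 h of 2i, with exact 95% intervals. The strongest deciles met the other factors most often (98.5% for Oct4 peaks with Sox2), and overlap with H3K4me3 was highest in the weakest deciles (35.0% for Nanog).

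Ranked by fold, the curve of Sox2 peaks with Nanog turned at the weak end. Sox2 peaks met Nanog in 98.8% of cases in the first decile and 66.1% in the eighth, but in 74.9% in the ninth and 82.0% (80.0 to 83.9) in the weakest. With lot 2 the rise was smaller, from 43.5% (41.0 to 46.0) in the eighth to 49.1% (46.6 to 51.7) in the weakest. Ranked by −log10 q there was no rise, and the eighth, ninth and weakest deciles met Nanog lot 1 in 74.1%, 64.1% and 60.4% of cases. Median fold in the weakest decile was 11.1 for Oct4, 3.98 for Sox2 and 5.57 for Nanog. Folds came in steps: 87.3% of Sox2 peaks shared their exact fold with another Sox2 peak, 241 of them at 5.06, so ranks among weak peaks were partly decided by the tie rule, which took −log10 q and then position.

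Meeting a peak of any rank is easier than meeting one of equal rank. All of the top 100 Oct4 peaks met a Sox2 and a Nanog peak, but only 36 met one of the top 100 Sox2 peaks and 14 one of the top 100 Nanog peaks. Sox2 and Nanog shared 16 of their top 100. At the top 1000 Oct4 and Sox2 shared 481, Sox2 and Nanog 395 and Oct4 and Nanog 276. At the top 5000 the number of Sox2 peaks with a Nanog peak, 2951, was above the number of Oct4 peaks with a Sox2 peak, 2864, and Oct4 and Nanog shared 2216. Oct4 with Nanog had the lowest count at each of these depths, although among the top 100 it differed from Sox2 with Nanog by less than counting error.

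The 10 regions with the best mean rank over the factors show the top of the shared set. The first lies at chr14:93225372-93226640 (mm9, as are all positions here, counted from 1), where Oct4 had a fold of 192, its second highest in the genome, Sox2 52.3 and Nanog 96.8. Its 3 summits lay within 60 bp, with Oct4 in the middle, 40 bp from Sox2 and 20 bp from Nanog. The next, chr2:119556113-119557348, had folds of 153, 46.9 and 86.4, and there Oct4 and Sox2 summits were 13 bp apart. At chr17:57642336-57643451 the folds were 129, 37.7 and 101. This region, alone of the 10, was not called for Sox2 in serum. Of the 10, 1 held an H3K4me3 peak, at chr11:71315234-71316603, and there the 3 summits lay within 9 bp.

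The strongest sites of single factors had lower folds. The highest Oct4 peak with no partner, at chr1:137240442-137241189, had a fold of 74.6 and rank 156, and it was called for Oct4 but not for Sox2 or Nanog in serum. The highest Nanog peak of that kind, at chr8:117369501-117370272, had a fold of 67.6, with 46.7 with lot 2 and 16.7 in serum. The second highest, at chr9:58549251-58549916, had a fold of 66.0. It was also called with lot 2 and in serum, but at lower folds of 13.6 and 11.9. The 3 highest Sox2 peaks without a partner all had a fold of 13.35 and ranked only 1551 to 1553. All 3 lay on X, between positions 120144756 and 122712688, and none was called for Sox2 in serum. In all, 6 Sox2 peaks had this fold.

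Summits of different factors lay a short way from each other. Among overlapping peaks the median distance was 32 bp (31 to 33, n = 12948) between Sox2 and Nanog, 39 bp (38 to 40, n = 6170) from Oct4 to Sox2 and 43 bp (42 to 44, n = 6929) from Oct4 to Nanog. Within 50 bp lay 67.2%, 60.4% and 57.3% of the pairs, and within 100 bp 88.5%, 86.8% and 84.0%. These distances are short beside the sheared fragments and beside the peaks themselves. With the middle of each peak in place of its summit, the medians were 60 bp, 87 bp and 95 bp.

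In the 5464 regions with exactly 1 peak of each factor, all 3 summits lay within 50 bp in 40.1% (38.8 to 41.4), within 100 bp in 78.3% and within 200 bp in 95.6%, and their median span was 61 bp. Sox2 and Nanog were the closest pair in 44.3% (42.9 to 45.6) of the 5394 regions without a tie, Oct4 and Sox2 in 28.8% and Oct4 and Nanog in 26.97%. Of the 5298 regions with a single middle summit, it was that of Oct4 in 25.6% (24.5 to 26.8), Sox2 in 37.0% (35.7 to 38.3) and Nanog in 37.4% (36.0 to 38.7).

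How far the pairs differed depended on the Nanog list. Among overlapping peaks with lot 2, the median from Sox2 to Nanog was 39 bp and from Oct4 to Nanog 40 bp, so that the 3 pairs lay within 1 bp of each other. These medians come from different sets of peaks. In the 4853 regions with 1 peak of each factor and lot 2, Sox2 to Nanog stayed shortest, at 35 bp (34 to 36). There Oct4 to Sox2 was 40 bp (38 to 41) and Oct4 to Nanog 39 bp (37 to 40). In regions with all 3 factors and lot 2, Sox2 and Nanog were the closest pair in 35.8% (34.4 to 37.1). In serum, with lot 1, they were the closest pair in 52.5%. The 24 h lists of Sox2 and of Nanog lot 1 had peaks on Y, 42 and 26, and none on unplaced contigs, whereas those of Oct4 and of Nanog lot 2 had none on Y and 6 and 22 on unplaced contigs. The aligner used for each list is not stated in the labels, and its part in the distances was not tested.

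The same factor measured again gave a scale for these numbers. In the regions with all 3 factors, the summits of the Nanog lots lay a median of 31 bp apart (30 to 32, n = 5054). That is more than the 29 bp (28 to 30, n = 5796) from Sox2 to Nanog lot 1 and less than the 36 bp (35 to 37) from Sox2 to lot 2. Between serum and 24 h of 2i the same factor moved by 18 bp for Nanog lot 1 (n = 5333). Sox2 moved by 26 bp (n = 4340) and Oct4 by 31 bp (n = 3410). The distances of Oct4 to Sox2, 40 bp (39 to 41), and to Nanog, 42 bp (40 to 43), were above each of these. The sets of regions were not the same, since these pairs with Oct4 were measured in all 5796. With lot 1, Sox2 and Nanog summits were thus no farther apart than the Nanog summits of the 2 lots, and with lot 2 they were.

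**Figure D3:**
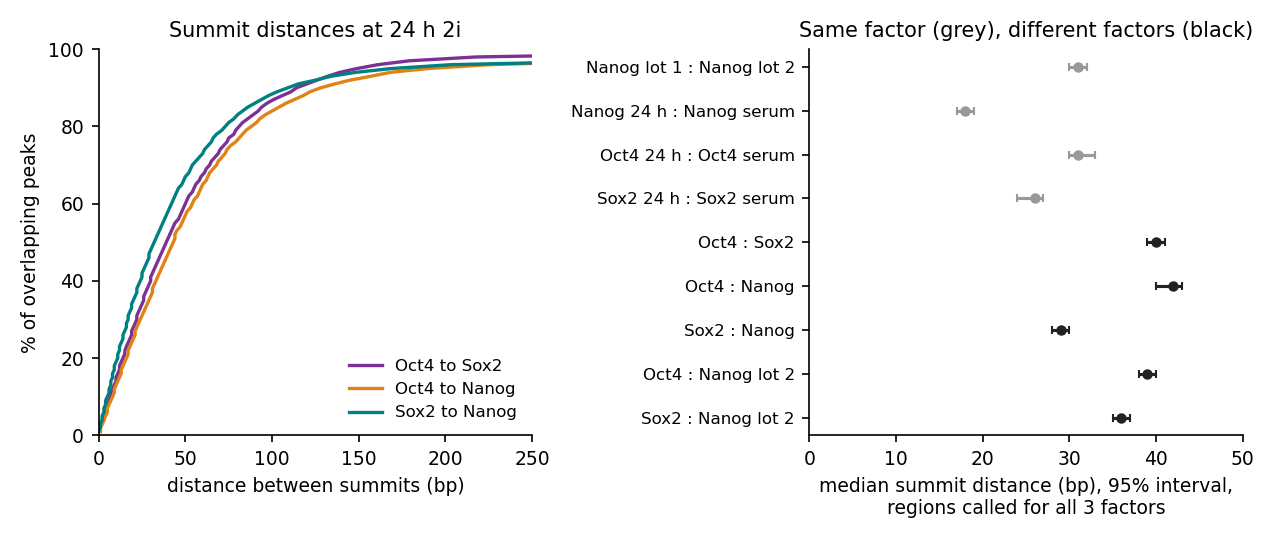
Left, cumulative percent of overlapping peaks by distance between summits at 24 h of 2i, in bp. Right, median summit distance with its 95% interval in the regions with all 3 factors that held a peak of both lists. Grey marks 2 lists of the same factor and black marks different factors. Sox2 to Nanog, at 29 bp, falls among the distances of the same factor measured again (18 to 31 bp), while Sox2 to Nanog lot 2, at 36 bp, and the pairs with Oct4, at 39 to 42 bp, lie above them.

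Summits were closer at strong peaks. From the strongest to the weakest decile of Oct4 peaks the median distance to Sox2 went from 30 bp (28 to 33) to 48 bp (44 to 53) and that to Nanog from 33 bp to 50 bp. From the strongest to the weakest decile of Sox2 peaks the distance to Nanog went from 21 bp (19 to 22) to 45 bp (42 to 48). Nanog peaks showed the same course towards Sox2, from 25 bp to 46 bp, and towards Oct4, from 37 bp to 59 bp. In every decile of Sox2 peaks and of Nanog peaks, the median distance between these 2 was shorter than that to Oct4. In regions with all 3 factors, the distance from Oct4 to Nanog was 47 bp (43 to 54) with H3K4me3 and 41 bp (39 to 42) without, intervals that lay apart. The intervals overlapped for Oct4 to Sox2, with 41 bp (36 to 49) and 40 bp (38 to 41), and for Sox2 to Nanog, with 31.5 bp (27 to 36) and 29 bp (28 to 30).

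Sites strong for one factor tended to be strong for another, least so for Oct4 and Nanog. Across the 5796 regions with all 3 factors, Spearman's rho of fold was 0.57 for Sox2 and Nanog, 0.53 for Oct4 and Sox2 and 0.33 for Oct4 and Nanog. Pearson's r of log2 fold was 0.54, 0.57 and 0.33. The regions are sites in the same genome and cell line, share base composition and mappability, and may share a control library, so these values describe the lists and carry no test. On single chromosomes, with 154 to 450 regions each, rho ran from 0.49 to 0.66 for Sox2 and Nanog, from 0.39 to 0.64 for Oct4 and Sox2 and from 0.24 to 0.47 for Oct4 and Nanog.

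**Figure D4:**
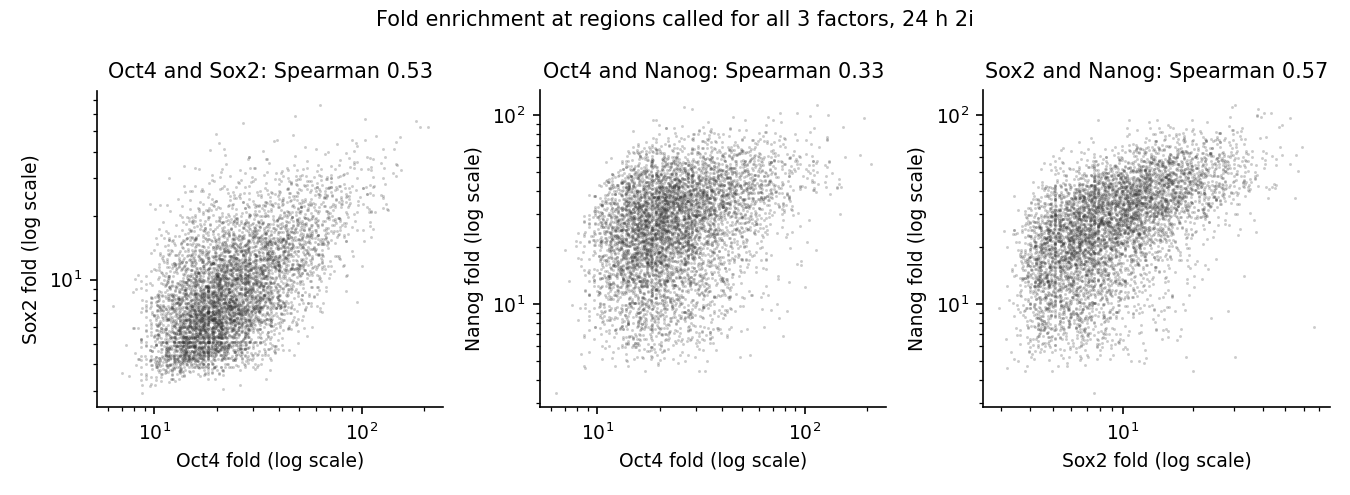
Fold of one factor against fold of another in the 5796 regions with all 3 factors at 24 h of 2i, both axes on a log scale, 1 point a region. Spearman's rho is 0.53 for Oct4 and Sox2, 0.33 for Oct4 and Nanog and 0.57 for Sox2 and Nanog, and the middle panel is the broadest cloud.

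At a given Sox2 strength, the relation of Oct4 and Nanog was weak. The partial rank correlation of Oct4 and Nanog with Sox2 held was 0.04, and within the 4 groups of 1449 regions cut by Sox2 fold rho lay between 0.03 and 0.12. With Nanog held, Oct4 and Sox2 kept 0.44. With Oct4 held, Sox2 and Nanog kept 0.49. Oct4 with Nanog had the lowest partial value in the other sets too. In the order just given, the 3 values were 0.09, 0.43 and 0.43 with lot 2, and 0.12, 0.28 and 0.55 in serum. Within groups cut by Sox2 fold, rho of Oct4 and Nanog reached 0.24 with lot 2 and 0.23 in serum, in the group of the weakest Sox2 peaks each time. Without Sox2 in the region, Oct4 and Nanog folds had a rho of 0.21 over 1108 regions. Without Oct4, Sox2 and Nanog had 0.45 over 6932. Without Nanog, Oct4 and Sox2 had 0.54 over 366.

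Lists of the same factor gave a scale for these values as well. In the regions with all 3 factors and both lots, rho between the Nanog lots was 0.68 (n = 5054). Between serum and 24 h it was 0.67 for Nanog (n = 5333), 0.67 for Oct4 (n = 3410) and 0.63 for Sox2 (n = 4340). All 3 values between different factors were below these, that of Oct4 with Nanog by the most. They were taken over all 5796 regions, so the sets of regions differ.

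In fold terms, the strongest 1449 of these regions by Oct4 had a median Sox2 fold of 14.0 (middle 50% from 10.02 to 19.5) and a median Nanog fold of 36.7 (24.7 to 48.6). The weakest 1449 by Oct4 had 6.25 (4.87 to 8.60) and 21.6 (14.1 to 31.0). The Nanog ranges overlapped between these ends and the Sox2 ranges did not. Cut by Sox2, the ends had a median Nanog fold of 41.7 (31.9 to 53.4) and 17.5 (12.04 to 24.9), ranges that were apart. Of the strongest 1449 regions by Oct4, 56.6% were also among the strongest 1449 by Sox2 and 44.3% among those by Nanog, and 482 regions were in the strongest set of all 3.

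Single regions departed widely from the shared order. At chrX:140700330-140701678 Oct4 had a fold of 47.0 and rank 654, Sox2 4.42 and rank 13223. The reverse held at chr11:8468816-8470204, with 9.57 and rank 7720 for Oct4 against 22.6 and rank 351 for Sox2, although both summits fell on the same base. In serum that region was called for Sox2 and Nanog but not for Oct4. At chr6:60943509-60944692 Oct4 had 78.8 and Nanog 6.80, and the fold of Nanog was low with lot 2 (7.14) and in serum (7.25) as well. At chrX:49630158-49631384 Nanog had 59.4 and Oct4 11.6, with summits 2 bp apart. There the fold of Nanog was 45.2 in serum but only 17.7 with lot 2.

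The strongest Sox2 peak of the genome, at chr19:23166912-23170358, had a fold of 66.4, with Oct4 at 63.2 and its summit 26 bp away. The Nanog list of lot 1 had a peak of fold 7.61 in this region, 1224 bp from the Sox2 summit. Nanog with lot 2 had a fold of 122 there, with the highest −log10 q of its list and the summit 14 bp from that of Sox2. In serum, lot 1 had a fold of 88.2, with its summit 1 bp from that of Sox2 at 24 h. A similar gap was found at chr1:178574144-178575403, the strongest region with Oct4 (63.0) and Sox2 (34.3) but no Nanog peak at 24 h with lot 1, where Nanog had 61.8 with lot 2 and 62.5 in serum. Such gaps were few. Of the 2190 peaks in the strongest decile of lot 2, 61 (2.79%, 2.14 to 3.56) met no peak of lot 1, and 4 of these met Oct4, Sox2 and serum Nanog.

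Most factor peaks did not meet H3K4me3. It was met by 7.84% (7.25 to 8.46) of Oct4 peaks, 5.81% (5.44 to 6.19) of Sox2 peaks and 9.90% (9.61 to 10.2) of Nanog peaks. The summit itself lay inside an H3K4me3 peak for 4.42%, 3.83% and 6.75%. H3K4me3 peaks covered 0.871% of the span of these chromosomes, which is below each of these shares. Measured from the nearest edge of the peak, 22.8% of Oct4, 21.5% of Sox2 and 25.4% of Nanog peaks lay within 10000 bp of the mark. The median distance was 52.2 kb for Oct4, 51.7 kb for Sox2 and 43.3 kb for Nanog. With lot 2 the share of Nanog peaks at H3K4me3 was 4.59% (4.31 to 4.87) and its median distance 49.6 kb, so Nanog had the highest of the 3 shares with lot 1 and the lowest with lot 2. With the factor lists at equal length 6.36% of Nanog lot 1 peaks met the mark, below Oct4. In serum, with its own H3K4me3 list of 19284 peaks, the shares were 12.3% for Oct4, 13.9% for Sox2 and 11.1% for Nanog.

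By combination of factors in the main lists, Nanog alone had the shortest median distance to the mark and Sox2 alone the longest. The intervals of these 2 lay apart. These distances used regions merged from the 3 factor lists only, so that the mark could not join regions. They were not recomputed by combination with Nanog lot 2, which was called in 29.0% of the regions with Nanog alone. Whether the order holds with lot 2 was not tested. The median was 51.8 kb (48.5 to 55.5) for the 5800 regions with all 3 factors, 48.5 kb (46.0 to 50.6) for Sox2 with Nanog, 56.7 kb (48.8 to 65.1) for Oct4 with Nanog and 52.9 kb (39.9 to 72.8) for Oct4 with Sox2, whose wide interval overlapped those of both ends. For Nanog alone it was 40.1 kb (38.9 to 41.4), and for Sox2 alone 73.3 kb (65.4 to 79.9). Oct4 alone had 48.2 kb, with an interval (39.1 to 63.9) that overlapped that of Nanog alone, and 12.05% (9.38 to 15.1) of these regions met the mark, against 11.4% (11.02 to 11.8) of those with Nanog alone.

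**Figure D5:**
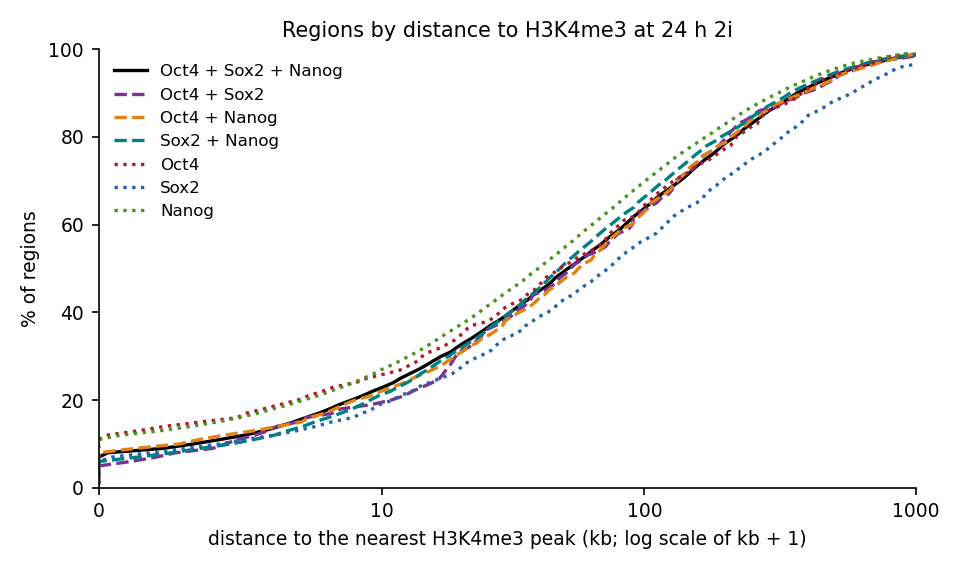
Cumulative percent of regions by distance to the nearest H3K4me3 peak at 24 h of 2i, in kb on a log scale of kb + 1. Each combination of factors has a curve, with Nanog from lot 1. At the middle of the scale the curve of Nanog alone runs highest (median 40.1 kb) and that of Sox2 alone lowest (73.3 kb), and close to the mark Oct4 alone and Nanog alone run together above the others.

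Nanog peaks at H3K4me3 had lower folds than the others, and Oct4 and Sox2 peaks slightly lower ones. Nanog peaks that met the mark had a median fold of 7.29 against 11.3 for the others, Oct4 18.3 against 20.3 and Sox2 5.53 against 5.98. The share at the mark rose in the weakest decile. Before that, it stayed between 5.63% and 8.06% for Oct4. For Sox2 it fell from 6.29% (5.12 to 7.62) in the first decile to 3.54% (2.67 to 4.59) in the fifth and was 5.89% in the ninth. For Nanog it climbed through the ranking, from 4.46% in the first decile to 13.7% in the ninth. For Oct4 it was 5.63% in the eighth decile and 18.7% (16.0 to 21.6) in the weakest. For Sox2 it was 4.65% and 12.8% (11.2 to 14.6), and for Nanog 9.51% and 35.0% (33.6 to 36.5).

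This rise turned on how strength was measured. Ranked by −log10 q, 7.93% (6.13 to 10.05) of the weakest decile of Oct4 peaks met H3K4me3 against 9.72% (7.73 to 12.01) of the strongest, and for Sox2 4.85% (3.83 to 6.05) against 8.06% (6.74 to 9.53). The direction was thus reversed for Sox2, and for Oct4 the intervals overlapped. Nanog lot 1 kept it, with 14.8% (13.8 to 16.0) against 6.52% (5.79 to 7.31). For lot 2 the shares were 10.3% in the weakest and 4.20% in the strongest decile by fold, but 4.11% and 6.07% by −log10 q. The weakest decile held wider peaks by fold than by −log10 q, with medians of 883.5 bp and 729 bp for Oct4 and 541 bp and 474 bp for Nanog lot 1, and the part of width in the shares was not tested.

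Seen from the mark, 74.0% of the 17435 H3K4me3 peaks held none of the 3 factors. Nanog alone was at 3393 of them (19.5%), and all 3 factors at 382. Wide H3K4me3 peaks held factors more often: in the widest decile, with a median width of 2938.5 bp, 43.9% held Nanog, 11.01% Sox2 and 7.40% Oct4. For Oct4 and Sox2 the narrowest decile, at 373 bp, came next highest, with 5.16% and 6.20% against lows of 2.24% and 3.56% in between. A wide peak offers more bases to overlap. With lot 2, 5.84% of H3K4me3 peaks held Nanog against 24.7% with lot 1.

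The 3 pairs kept a positive relation of fold at and away from the mark. In the 450 regions with all 3 factors and H3K4me3, rho was 0.60 for Oct4 and Sox2, 0.33 for Oct4 and Nanog and 0.50 for Sox2 and Nanog, against 0.52, 0.33 and 0.57 in the 5346 without it. Median folds with and without the mark were 21.8 and 22.0 for Oct4 and 8.38 and 8.44 for Sox2. For Nanog they were 22.9 (middle 50% from 14.4 to 32.8) and 27.4 (17.4 to 39.5).

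Most regions with all 3 factors had no other such region close by. Of the 5800, 771 (13.3%, 12.4 to 14.2) had another within 12.5 kb, in 366 groups, and 6 of these groups held 4 regions. One group of 4, on chromosome 6 from 4957799 to 4984218, reached folds of 42.5 for Oct4, 14.7 for Sox2 and 46.5 for Nanog. Regions in groups were not stronger: the median Oct4 fold was 22.3 for regions by themselves, 20.7 in pairs and 18.2 in groups of 3 or more, and for Nanog it was 27.1, 26.8 and 25.7. A separate count of neighbours within 12.5 kb found another region with all 3 factors for 709 (12.2%) of the 5800. For the other combinations the share near such a region ran from 6.88% (Sox2 alone) to 12.7% (Oct4 with Nanog). Of the 5800, 54.6% had some region with a factor within 12.5 kb.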

How the data were processed

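ChIP-seq peaks of Oct4, Sox2, Nanog and H3K4me3 at 24 h of 2i were analysed, with the Nanog lot 2 list and the 4 serum lists as yardsticks. Per peak, the authors deposited a fold enrichment, which is a ratio to a control, and a q-value, written as −log10 q. The deposited lists also give the summit offset, and name their peaks as calls on pooled replicates, although Oct4 has 1 sample in the labels. MACS2, the build mm9 and the aligners Bowtie 0.12.7 and BWA 0.5.7 appear in the submitters' processing notes, with no role. The aligner of each list and the rule that selected its peaks are not given in the sources used here. Sox2 libraries, labelled as RNA, were treated as ChIP-seq. Depth is unknown because a peak list has no read counts.

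Peaks on Y and unplaced contigs were left out: 6 for Oct4, 42 for Sox2, 26 for Nanog and 32 for H3K4me3. Peaks sharing at least 1 bp met, and merged peaks formed regions, with the strongest peak by fold giving a region's fold and summit. A summit distance is that to the nearest summit among the peaks met. Shares carry exact Clopper-Pearson 95% intervals and medians 95% order-statistic intervals, both covering counting error only. Neighbouring peaks are not independent. Named regions are the 10 with the best mean rank, the 3 strongest of each other combination and the 3 with the largest rank differences for each pair of factors in each direction; the text prints some of them. The question, the lists and the rules were chosen with earlier results of these data known, and the comparisons with the same factor in another list, the partial correlations and the weak-end deciles by −log10 q or lot 2 were added after values were seen. No annotation of mm9 was used, so no region is assigned to a gene. As alternatives, peaks under a −log10 q of 10 were dropped, or factor lists cut to equal length, and results were recomputed with Nanog lot 2, an overlap of 50% of the shorter peak, other merges, peak middles, −log10 q as strength and leaving out X. The code was tested on simulated peaks (Python 3.11.15, pandas 2.3.3, scipy 1.17.1).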

Additional observations from a re-analysis of the deposited data

How the results depend on the processing

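Of 79 recomputed values of the main results, 49 stayed within the interval or tolerance of the value reported and 30 moved. The tolerance was a factor of 1.5 for counts and 0.05 for rho. A fall in regions with all 3 factors from 5796 to 4344, at a minimum −log10 q of 10, thus counted as staying. Some values could not move. That minimum removed no Oct4 or Nanog peak, and equal length left the Oct4 list as it was. The 49 therefore overstates how stable the results are. Of 100 recomputed shares of the strongest and weakest deciles, 41 stayed and 59 moved. Orders turned too: with lists of equal length Oct4 met Sox2 more often than Nanog, and the share of Nanog peaks at H3K4me3 fell below that of Oct4, as it did with lot 2. With the factor lists at the length of the Oct4 list, regions with all 3 factors numbered 3459, Oct4 peaks met Sox2 in 61.3% and Nanog in 52.3% of cases and Sox2 met Nanog in 65.2%, the median distances were 37 bp (Oct4 to Sox2), 39 bp (Oct4 to Nanog) and 26 bp (Sox2 to Nanog), rho of Sox2 and Nanog was 0.49, and 6.36% of Nanog peaks met H3K4me3. With a minimum −log10 q of 10, Oct4 met Sox2 in 57.7% and Sox2 met Nanog in 95.8%, the distances were 37 bp (Oct4 to Sox2) and 27 bp (Sox2 to Nanog), and H3K4me3 was met by 5.77% of Oct4, 4.45% of Sox2 and 8.45% of Nanog peaks. With Nanog lot 2, Oct4 met Nanog in 74.3% and Sox2 met it in 65.3%, the distances to Nanog were 40 bp from Oct4 and 39 bp from Sox2, and 4.59% of Nanog peaks met H3K4me3. Peak middles gave 87 bp, 95 bp and 60 bp for Oct4 to Sox2, Oct4 to Nanog and Sox2 to Nanog. An overlap of 50% of the shorter peak gave shares at H3K4me3 of 6.29%, 4.00% and 7.82% for Oct4, Sox2 and Nanog, and a summit within 1000 bp of the mark gave 8.79%, 7.96% and 11.4%. Among overlapping peaks, the median from Oct4 to Sox2 was shorter than that from Oct4 to Nanog wherever both were recomputed, by 1 bp with lot 2; in regions with all 3 factors and lot 2 it was 40 bp against 39 bp. The cause of these shifts was not tested, apart from the shorter lists, which by construction hold fewer peaks.

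No paired analysis was possible because each target has 1 list, with no value per replicate. Leaving out a replicate was not run for the same reason. Without read counts, weak binding and shallow sequencing cannot be told apart where a peak is missing.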
